A study of Mus musculus with 2 samples.

Results

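The genes described here belong to the major histocompatibility complex (MHC) class I pathway and are B2m, H2-K1, H2-D1, Tap1, Tap2, Tapbp, Psmb8, Psmb9, Erap1 and Nlrc5. They are 10 genes beside 22254 annotated protein-coding genes. DNase I hypersensitive sites (DHS) were collected for each gene when they overlapped the gene body or the 20 kb on either side, and a DHS was assigned to the gene whose transcription start site (TSS) lay nearest to its centre. These windows held 45 of the 47542 DHS in the list, and 21 of the 45 were assigned to one of the 10 genes. The other 24 lay nearest to a TSS of another gene.

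Class I molecules display peptides from inside the cell to CD8 T cells. Peptides are cut by the proteasome, carried into the endoplasmic reticulum by the TAP transporter, trimmed there, and loaded on a heavy chain paired with β2-microglobulin. Class I molecules are found on most nucleated cells, and many genes of the pathway respond to interferon. NLRC5 is the known co-activator of class I promoters, acting through a set of promoter boxes that includes an X and a Y box.

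The cells were splenic B cells of C57/Bl6 mice, Trp53+/+, mock-treated and 8 weeks old, selected on magnetic columns by B220. DNase I, which prefers open chromatin to DNA wrapped on nucleosomes, was applied to isolated nuclei. The data are 1 DNaseI library and 1 input library with no replicates, so all comparisons are descriptive and no test was made. The file of the DNaseI library is a list of regions, each with a score given by the authors' peak caller, and the depth behind it is unknown.

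The label was checked against marker genes. A DHS covered a TSS at 8 of 8 B cell markers, 0 of 8 T cell markers, 1 of 8 myeloid markers (Cd14) and 0 of 4 NK cell markers. Over all DHS the median score was 32.65, with a range from 5.05 to 619.44, and the median width was 760 bp.

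Promoter sequences with an interferon element or the paired boxes of class I genes are shown first, because the DHS over them are described below. Whole promoters are shown for B2m, H2-K1 and Erap1. That of H2-D1, which lies in an annotated exon of another H2-D1 transcript, is shown by its words only. The 250 bases before the start are from RefSeq promoter sequences (build GRCm38.p6) and were placed on mm9 by exact match. Promoter sequences of 8 of the 10 genes were matched, and those of Tap2 and Nlrc5 were not among them. Capitals mark an interferon element (GAAANNGAA, or with its arms in the other order GAANNGAAA), a kappa B word (GGGNNTTCC), or the paired words TGACG and ATTGG on 1 strand with starts 15 to 35 bases apart, which stand for the X2 part of the X box and the inverted CCAAT of the Y box. Both strands were searched. In these 3 promoters no capital word overlapped another.
B2m, chr2:121973173-121973422, plus strand: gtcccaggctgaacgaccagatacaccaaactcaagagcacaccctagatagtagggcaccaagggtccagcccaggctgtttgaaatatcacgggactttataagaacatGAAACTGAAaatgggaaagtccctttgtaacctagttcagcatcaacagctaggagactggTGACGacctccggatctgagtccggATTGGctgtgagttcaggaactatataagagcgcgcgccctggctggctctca
H2-K1, chr17:34137293-34137542, minus strand: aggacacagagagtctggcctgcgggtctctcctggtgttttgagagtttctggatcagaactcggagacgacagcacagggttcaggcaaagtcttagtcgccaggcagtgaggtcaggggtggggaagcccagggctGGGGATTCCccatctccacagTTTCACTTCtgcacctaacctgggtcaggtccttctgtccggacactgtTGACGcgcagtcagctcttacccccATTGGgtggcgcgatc
Erap1, chr13:74777051-74777300, plus strand: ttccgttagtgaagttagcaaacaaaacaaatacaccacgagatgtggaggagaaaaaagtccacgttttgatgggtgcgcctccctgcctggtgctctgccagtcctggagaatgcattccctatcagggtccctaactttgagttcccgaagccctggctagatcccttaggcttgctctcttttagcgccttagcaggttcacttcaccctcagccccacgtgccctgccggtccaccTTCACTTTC

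The X2 and CCAAT words stood as a pair in B2m, H2-K1 and H2-D1, that is in 3 of 8 genes, against 0.743% of 32851 RefSeq promoters of the same 300 bases. Around the main annotated TSS, which lies at an internal start for H2-D1, the pair was in 2 of 10 genes against 0.863% of protein-coding genes, and in the 300 bases at the centres of the 21 assigned DHS it was in 0 against 0.261% of all DHS. The search of RefSeq promoters was chosen after seeing the data. In each of the 3 genes the starts of the words were 25 bases apart. They are set side by side to show the shared spacing, with the words in capitals.
B2m, chr2:121973345-121973374: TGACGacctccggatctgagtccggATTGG
H2-K1, chr17:34137304-34137333: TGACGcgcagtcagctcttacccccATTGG
H2-D1, chr17:35399938-35399967: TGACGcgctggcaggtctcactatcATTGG

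The H2-K1 and H2-D1 pairs were identical at 23 of 30 bases. B2m matched H2-K1 at 13 and H2-D1 at 12 of 30 bases, with 10 of these in the words themselves. The heavy chain promoters also shared a stretch that joins the kappa B word to the interferon element in its other order, shown with both words in capitals.
H2-K1, chr17:34137374-34137403: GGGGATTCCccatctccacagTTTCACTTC
H2-D1, chr17:35399868-35399897: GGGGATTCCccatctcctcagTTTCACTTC

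Set side by side without gaps, at a shift of -60 bases, the H2-K1 and H2-D1 promoters were identical at 166 of 190 bases (87.4%). The kappa B word was found in 2 of 8 genes, H2-K1 and H2-D1, against 5.82% of RefSeq promoters. The word fixes 2 bases between GGG and TTCC. B2m holds these on the other strand with more bases between them, in ggaaagtccc, which was not counted. Around the main TSS the kappa B word was in 1 of 10 genes, H2-K1, against 6.12%, and in 0 of the 21 DHS centres against 5.50%. GAAANNGAA was found in B2m and Erap1, 2 of 8, against 8.56%. In the 300 bases around the main annotated TSS it was found in B2m, Erap1 and Nlrc5, 3 of 10 (30%, exact interval 6.67 to 65.2), against 9.06% of protein-coding genes. For Nlrc5 this start may not be the one in use, as described below. The other order was found in H2-K1 and H2-D1, 2 of 8, against 7.52%, and around the main TSS in 1 of 10, H2-K1, against 7.85%. It was searched after the promoter sequences had been seen. The single word TGACG was found in 5 of 8 genes against 20.8%, ATTGG in 6 of 8 against 37.4%, and the Ets word GGAAG in 6 of 8 against 71.4%. Around the main TSS these were 4 of 10 against 23.3%, 5 of 10 against 37.9% and 7 of 10 against 71.5%. Tap1 and Psmb9 share 275 of the 300 bases searched, so the same match is counted for both genes in each of the 3 counts on RefSeq promoters. A match describes the letters only and is not a measured binding site.

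Most of the 10 genes were accessible at their start. A DHS covered at least 1 annotated TSS in 9 of 10 genes (90%, 95% exact binomial interval 55.5 to 99.7, counting error only), against 46.6% of protein-coding genes. The exception was Nlrc5, for which the annotated start may not be the one in use, as described below. The same 9 genes had a DHS in the promoter window from 5 kb upstream to 2 kb downstream of a TSS, against 57.1% of protein-coding genes. Of the 8 genes with a RefSeq start placed on mm9, 7 had a DHS over it, against 33.9% of 31729 placed RefSeq starts, and H2-K1 did not. Over all genes, those with a CpG-rich 5′ end had a DHS over some TSS more often, at 74.0%, than other genes, at 29.5%. H2-K1, Tap1, Tapbp and Psmb9 have a CpG-rich 5′ end, and 4 of these 4 genes and 5 of the other 6 had a DHS over some TSS, which for H2-K1 and Tap2 was not the 5′-most one.

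Scores at these promoters were high within the list. The median over the 9 genes of the highest score in the promoter window was 216.83. Over the 12702 protein-coding genes with a promoter DHS it was 101.175, with an upper quartile of 152.1. The 9 values came from 7 distinct DHS, because Tap1 shared one with Psmb9 and Tap2 shared one with Psmb8, so the values are not independent. The order was B2m at 253.09, H2-D1 at 247.04, Tap1 and Psmb9 at 217.53, Psmb8 at 216.83, Tap2 at the same value by the edge of the Psmb8 DHS alone, H2-K1 at 202.5, Tapbp at 142.41 and Erap1 at 124.21. With 1 library there is no spread by which to say which neighbours in this order differ.

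**Figure D1:**
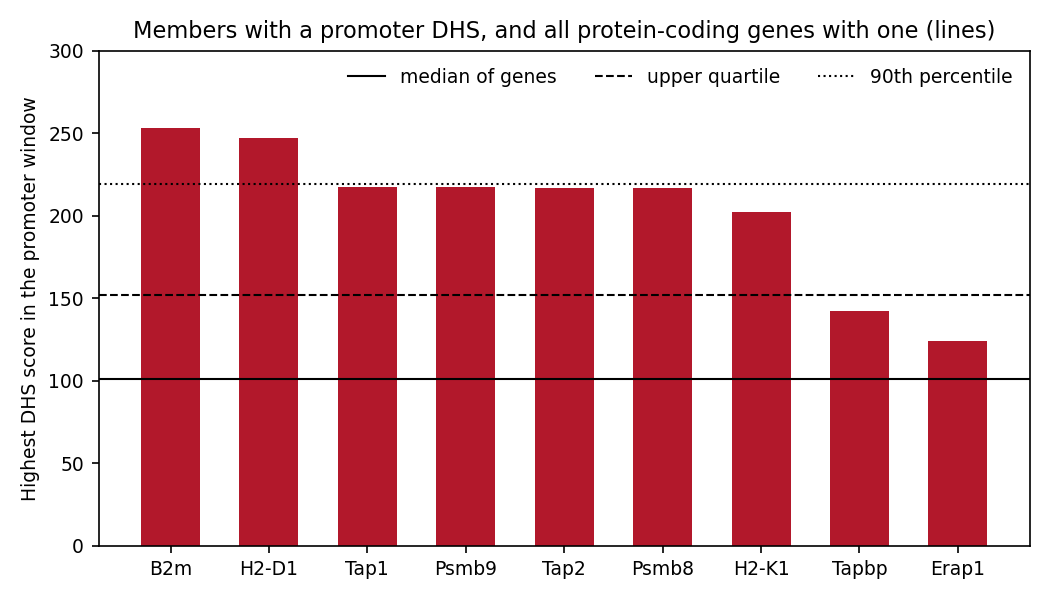
Highest DHS score in the promoter window (vertical axis, the caller's score, from 0) of the 9 genes with a promoter DHS, 1 bar per gene from 1 library. The lines are the median (101.175), upper quartile (152.1) and 90th percentile (219.5) of the 12702 protein-coding genes with a promoter DHS, and 7 of the 9 bars stand above the upper quartile. The Tap2 bar is the Psmb8 DHS, which overlaps the edge of its window, and its own DHS scored 102.09.

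The 21 assigned DHS covered 31.2 kb and were wide. Their median width was 1341 bp (407 to 3513 bp), and 17 of 21 were wider than the median of all DHS. At least 2 kb was reached by 6 of the 21, against 6.04% of all DHS. The median score was 106.92 (6.64 to 253.09), and 8 of 21 reached the 90th percentile of all DHS (127.78). By position, 14 of 21 (66.7%, exact interval 43.0 to 85.4) were promoter DHS of any gene, against 47.5% of all DHS. This difference is in part set by the rule, which took DHS near genes and nearest to a member TSS, and the share was 81.8% for gene bodies only and 63.6% with 50 kb on either side. Over the alternatives run it ranged from 52.4%, with promoters within 1 kb of a TSS, to the 81.8% for gene bodies. The share over all DHS is not given for these alternatives. Of the assigned DHS outside promoters as first defined, 1 overlapped an exon, 1 lay in an intron and 5 were intergenic.

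**Figure D2:**
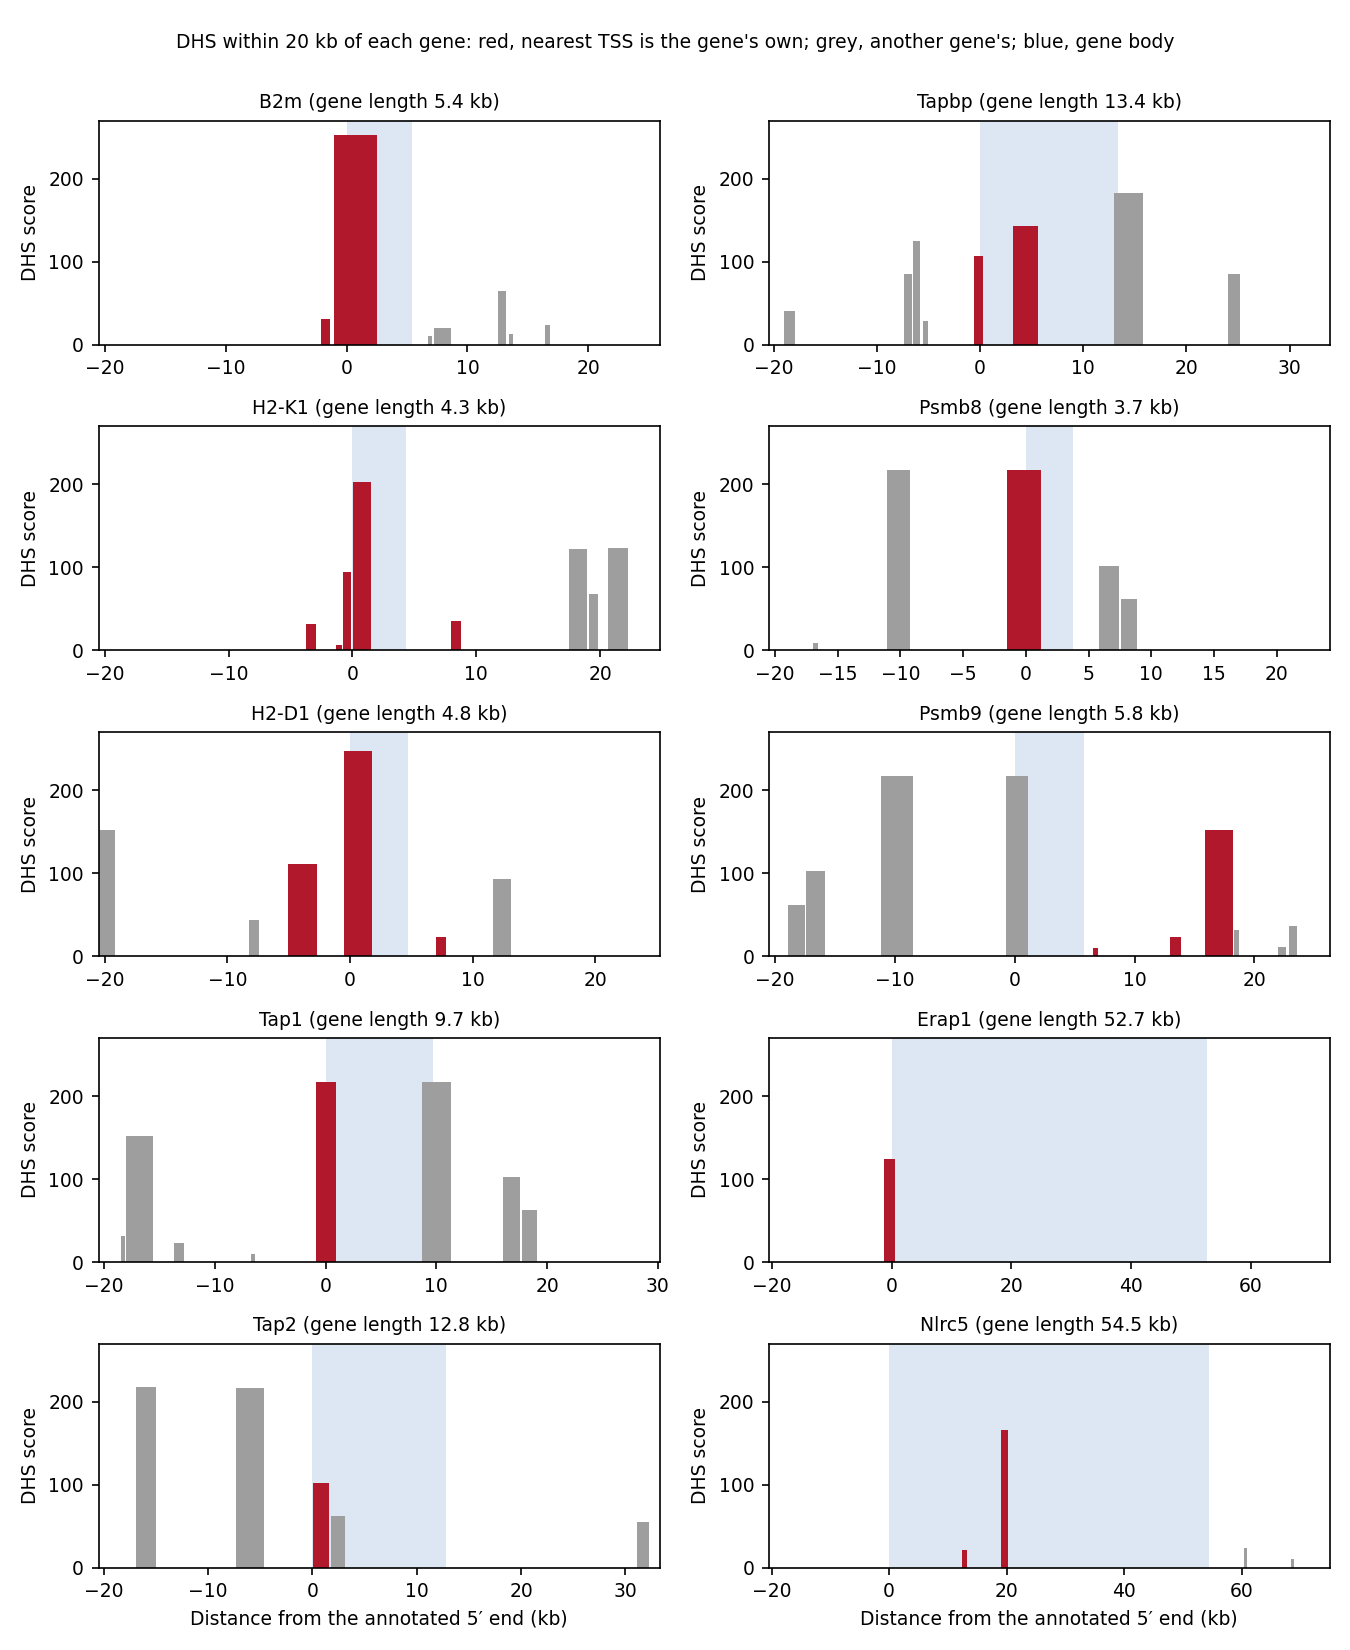
DHS within 20 kb of each of the 10 genes. The horizontal axis is the distance in kb from the annotated 5′ end, in the direction of transcription. The bar height is the caller's score and the bar width the width of the DHS. Red bars are assigned to the gene, grey bars lie nearest to another gene's TSS, and the blue band is the gene body. Red bars stand at the 5′ end in 8 panels, and in the Psmb9 and Nlrc5 panels they lie away from it.

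The light chain gene B2m encodes β2-microglobulin, the partner of all class I heavy chains. Its DHS at chr2:121972415-121975927 had the highest score (253.09) and width (3513 bp) of the 21, and the score exceeded that of 93.4% of genes with a promoter DHS. It covered the only annotated TSS, at 121973422, and all 250 bases of the promoter shown above, with the interferon element at -139 to -131 and the X2-CCAAT pair at -78 to -49 from the RefSeq start. A second DHS of B2m, at chr2:121971331-121972071, was 741 bp wide and scored 30.68. The other 5 DHS in its window lay nearest to Trim69 and scored from 10.16 to 64.77.

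H2-D1 encodes a classical heavy chain. Its main DHS, chr17:35399210-35401511, was 2302 bp wide and scored 247.04. It covered 2 of 4 annotated starts, among them 35400039, which is also the RefSeq start, and 829 bp of it lay before that start. The kappa B word at -171 to -163, the interferon element at -150 to -142 and the X2-CCAAT pair at -101 to -72 all lay inside. A further 2 DHS were assigned to H2-D1. One upstream, chr17:35394623-35397016, was 2394 bp wide and scored 111.05. The other, past the 3′ end at chr17:35406732-35407544, scored 23.23. The highest of the other 3 DHS in the window, 152.37, covered the start of the RNA helicase gene Ddx39b.

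H2-K1, the other heavy chain of the 10, had the most assigned DHS in the list as called. Of 5 in all, chr17:34135787-34137269 scored highest (202.5), over exons and 6 of the 10 annotated starts. Next upstream followed chr17:34137410-34138030 with 94, chr17:34138115-34138598 with 6.64 and chr17:34140202-34141013 with 31.77. The DHS scoring 202.5, 94 and 6.64 were separated by gaps of 140 and 84 bp only. They join when DHS closer than 500 bp are merged. One past the 3′ end, chr17:34128503-34129329, scored 35.57. The other 3 DHS in the window lay farther downstream, nearest to H2-K2 (122.94) and Gm4152 (67.98 and 121.77), and those of H2-K2 and Gm4152 held 15.1% to 39.5% repeated words.

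The 5′ end of H2-K1 lay between its DHS. The annotated 5′ end at 34137278, and the RefSeq starts at 34137278 and 34137292, fell in a gap of 140 bp, chr17:34137270-34137409, between the DHS that scored 202.5 and 94. The kappa B word, the interferon element and the X2-CCAAT pair of the printed promoter lay in this gap with 0 of their bases in a DHS, whereas the same words of H2-D1 were covered in full. Of the 250 bases printed for H2-K1, 53.2% lay in a DHS. The gap closes when DHS closer than 500 bp are merged. The 6 covered starts of H2-K1 are 44 to 859 bp downstream of the annotated 5′ end. The X2-CCAAT pair lay at -41 to -12 from the RefSeq start 34137292 of H2-K1, and at -101 to -72 in H2-D1. The RefSeq starts of these genes therefore do not mark matching positions, which limits the contrast between them.

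Class I heavy chain genes are near copies of each other, and reads from them may be placed on several genes or left out. The share of 31-base words of a DHS that occur elsewhere in mm9 was 36.3% for the highest-scoring DHS of H2-K1, 35.4% for the one just upstream and 9.09% for the gap between them. It was 28.6% for the main DHS of H2-D1. Over all DHS the median share was 0% and the 90th percentile 8.53%. Words of the main H2-K1 DHS recurred most within 5 kb of H2-Q2 (331 copies), H2-Q4 (299) and H2-D1 (263), and those of the main H2-D1 DHS within 5 kb of H2-K1 (357) and H2-Q2 (268), counting words found at no more than 20 places. The part of these copies in the scores and in the gap was not tested, and both genes' scores are uncertain for this reason.

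**Figure D3:**
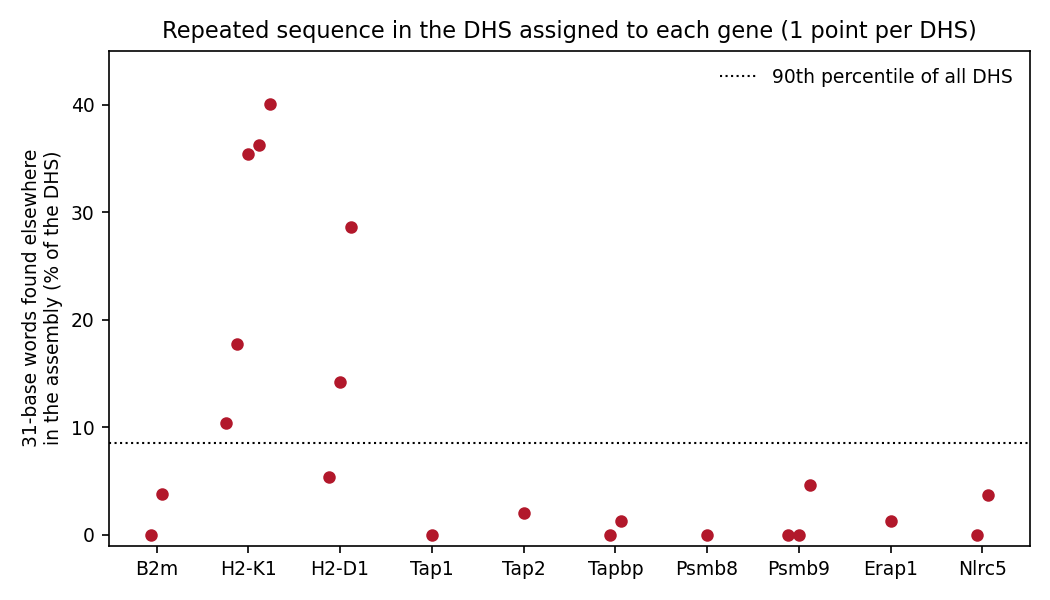
Share of the 31-base words of each assigned DHS that occur elsewhere in the assembly (vertical axis, percent of words), 1 point per DHS, by gene. The dotted line is the 90th percentile of all DHS (8.53%). All 5 points of H2-K1 and 2 of the 3 of H2-D1 lie above 10%, and no DHS of the other 8 genes exceeds 4.68%.

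The transporter and the immunoproteasome are encoded together, in a cluster of Psmb9, Tap1, Psmb8 and Tap2. Tap1 and Tap2 encode the subunits of the peptide transporter. Psmb8 and Psmb9 encode catalytic subunits that replace those of the constitutive proteasome after interferon. Psmb9 (minus strand) and Tap1 (plus strand) are transcribed away from each other.

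One DHS served the starts of both Tap1 and Psmb9. It spanned chr17:34323593-34325458 (1866 bp), scored 217.53 and covered 4 of 7 annotated starts of Tap1 and 5 of 7 of Psmb9. The RefSeq starts, 34324275 for Psmb9 and 34324501 for Tap1, have 225 bases between them, all inside this DHS. By the centre of the DHS it was nearest to Tap1, at 27.5 bp, so it was assigned to Tap1 alone. No 31-base word of it recurred in the assembly.

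Psmb8 had 1 assigned DHS, chr17:34333180-34335865, which was 2686 bp wide, scored 216.83 and covered 3 of 3 annotated starts. It also reached the 3′ end of Tap1, and 394 of its bases overlapped the far edge of the promoter window of Tap2. No word of it recurred elsewhere.

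Tap2 had 1 assigned DHS, chr17:34340480-34342067, 1588 bp wide with a score of 102.09. It began 8 bp past the annotated 5′ end (34340472) and covered 3 of 5 starts, so the 5′-most start itself was not covered. The value of 216.83 given for Tap2 above is that of the Psmb8 DHS, whose centre lay outside the promoter window of Tap2. With the centre required in the window, or with a window of 1 kb around each TSS, the value for Tap2 was its own 102.09, and those of the other 8 genes were as given. A DHS 62.25 in score lay within the gene, nearest to Gm20496.

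The 3 DHS assigned to Psmb9 by the nearest-TSS rule were all downstream of the gene. The widest, chr17:34306469-34308870, was 2402 bp and scored 151.86. The other 2, chr17:34310823-34311732 and chr17:34317724-34318130, scored 23.18 and 9.43. Between Psmb9 and H2-DMb1, a class II gene, 3 more DHS scored from 10.5 to 36 and lay nearest to H2-DMb1.

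**Figure D4:**
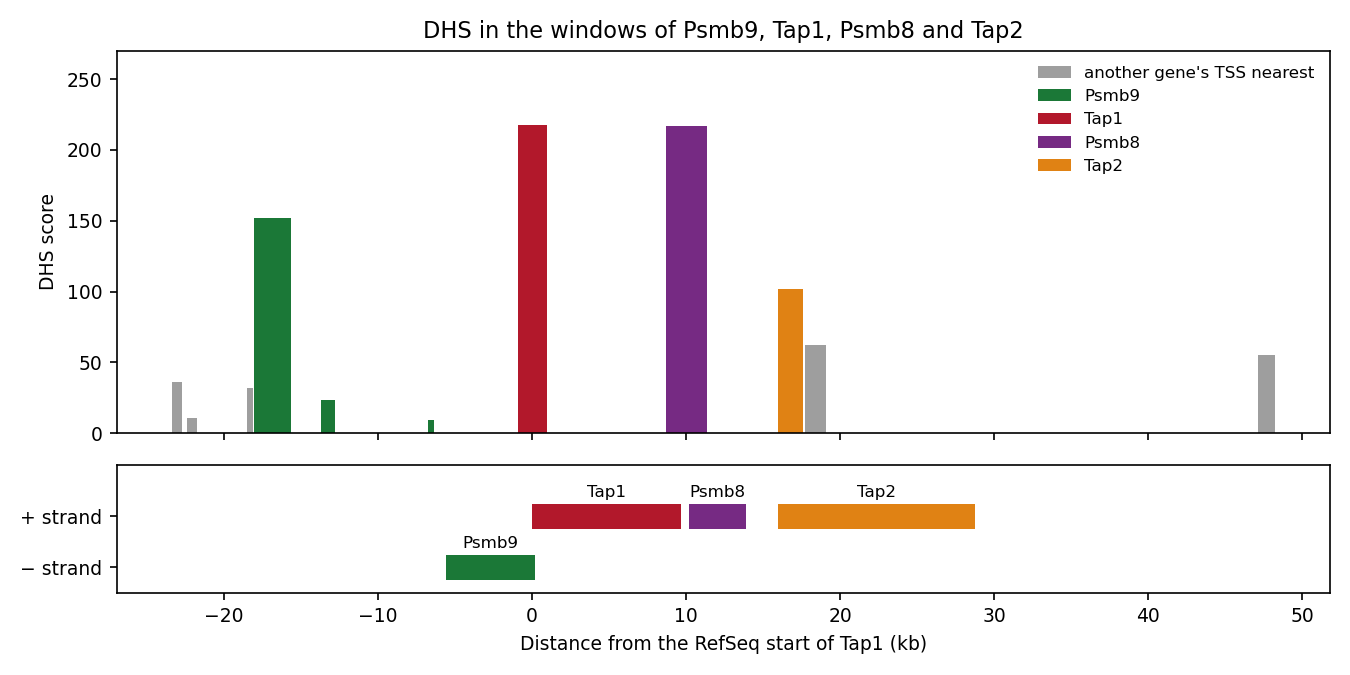
Scores of the DHS in the windows of Psmb9, Tap1, Psmb8 and Tap2 against distance from the RefSeq start of Tap1 in kb (plus strand to the right), with gene bodies below by strand. Bar colour gives the gene with the nearest TSS among these 4, and grey any other gene. The DHS shared by the starts of Tap1 and Psmb9 (217.53) and that of Psmb8 (216.83) are the highest, and the DHS of 151.86 downstream of Psmb9 is the third.

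Tapbp encodes tapasin, which bridges the transporter and the heavy chain during loading. It had 2 assigned DHS. The one at the annotated 5′ end, chr17:34052251-34053132, scored 106.92 and also covered a start of Zbtb22. The other, chr17:34055994-34058478, was 2485 bp wide, scored 142.41 and covered 4 further starts, among them the RefSeq start 34056423. In all 5 of 6 starts were covered. The highest score in its window, 182.78, belonged to a DHS over the start of Rgl2 that reached into the last part of Tapbp. Upstream, the start of Daxx was covered by a DHS of 124.56.

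Erap1 encodes the aminopeptidase that trims peptides in the endoplasmic reticulum. Its gene body is 52.7 kb long, and the only DHS in its window was chr13:74776028-74777822, with a score of 124.21 and a width of 1795 bp. It covered 2 of 2 starts and all 250 bases shown above, where the interferon element takes the 9 bases before the RefSeq start. This score exceeded that of 63.4% of genes with a promoter DHS. In a window of 50 kb a second DHS was assigned to Erap1, chr13:74754381-74755497, with a score of 86.48 at 22381 bp upstream.

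For Nlrc5, the co-activator of class I promoters, no DHS was called over any of the 3 annotated starts or in the promoter window. Release M1 types the gene as a lincRNA and gives no protein-coding transcript for it, so its start in that release may not be the one in use. Both assigned DHS lay inside the gene body. One, chr8:97015635-97016975, scored 165.67 at 19642 bp from the annotated start and overlapped an exon. The other, chr8:97009064-97009955, scored 21.12 at 12846.5 bp and lay in an intron. Within 50 kb upstream the highest DHS was chr8:96957259-96958707 with 62.82, nearest in that release to the noncoding gene 9330175E14Rik. Whether this DHS covers a start of Nlrc5 missing from the release was not tested. The absence of a promoter DHS means that none was called at an unknown depth.

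The p53 response element was searched because the study concerns p53, allowing 2 mismatches in 20 bases but keeping the core C and G fixed. It was found in 1 of the 45 DHS in the windows, against 1.02% of all DHS. The match, in the shared Tap1 and Psmb9 DHS, is in a coding exon of Tap1, 566 bp past the RefSeq start, and holds 2 mismatches. Capitals mark the fixed core bases.
Tap1, chr17:34325067-34325086, plus strand: ggcCctGcctggaCttGcct

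In the whole windows of 20 kb, 0 elements were found for B2m, H2-D1 and Tapbp and 1 for each of the other 7 genes, with that of Tap1 lying in the windows of Tap2, Psmb8 and Psmb9 too. These 7 of 10 genes (70%) stand beside 51.8% of protein-coding genes, and the median was 1 element per window in both. No binding was measured in this library.

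Other genes of the pathway were mostly accessible too, with the lowest share among heavy chains. A DHS covered a TSS in 35 of 43 genes found in the annotation (81.4%), against 46.6% of protein-coding genes. By role these were 4 of 4 peptide loading genes (Tapbpl, Calr, Canx, Pdia3), 7 of 7 proteasome genes, 6 of 6 peptidases, 8 of 9 regulators, 3 of 4 class I like molecules and 7 of 13 heavy chains. The heavy chain share, 53.8% (exact interval 25.1 to 80.8), was near that of protein-coding genes. Repeated words made up 0.412% to 42.3% of the 1 kb taken at the start of the uncovered heavy chains. The uncovered regulator was Irf2 and the uncovered class I like gene was Fcgrt, both named after their values were seen. In the promoter window 39 of 43 pathway genes had a DHS (90.7%), Irf2 among them, against 57.1% of protein-coding genes.

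Among heavy chains outside the 10 genes, the score over the start was 202.24 at H2-Q4, 190.46 at H2-Q6, 151.41 at H2-Q7, 50.86 at H2-T22, 133.21 at H2-T23, 94.88 at H2-T24 and 270.33 at H2-M3. Repeated words made up 26.7% to 66.2% of the DHS at H2-Q4, H2-Q6, H2-Q7, H2-T22 and H2-T23, whose scores are uncertain for the reason given for H2-K1, and 7.80% and 7.70% of those at H2-M3 and H2-T24, below the 90th percentile of all DHS. H2-Q2 has 2 annotated loci. No DHS covered a start of the longer one, which was the one counted, and a DHS of 27.21 covered a start of the other.

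Beside these stood 3 further lists. A DHS covered a TSS in 9 of 10 MHC class II genes and regulators (all but H2-DMa), 19 of 20 core proteasome subunits (all but Psma2) and 16 of 18 interferon-stimulated genes (all but Ifit3 and Oas3). In the promoter window these lists had a DHS at 10 of 10, 20 of 20 and 17 of 18 genes. The 10 genes had one at 9 of 10, and protein-coding genes at 57.1%. The median of the highest promoter score was 180.12 in the class II list, 109.715 in the core proteasome list and 65.14 in the interferon list, beside 216.83 in the 10 genes. Psmb5, Psmb6 and Psmb7 stand in both the proteasome and the core proteasome counts.

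**Figure D5:**
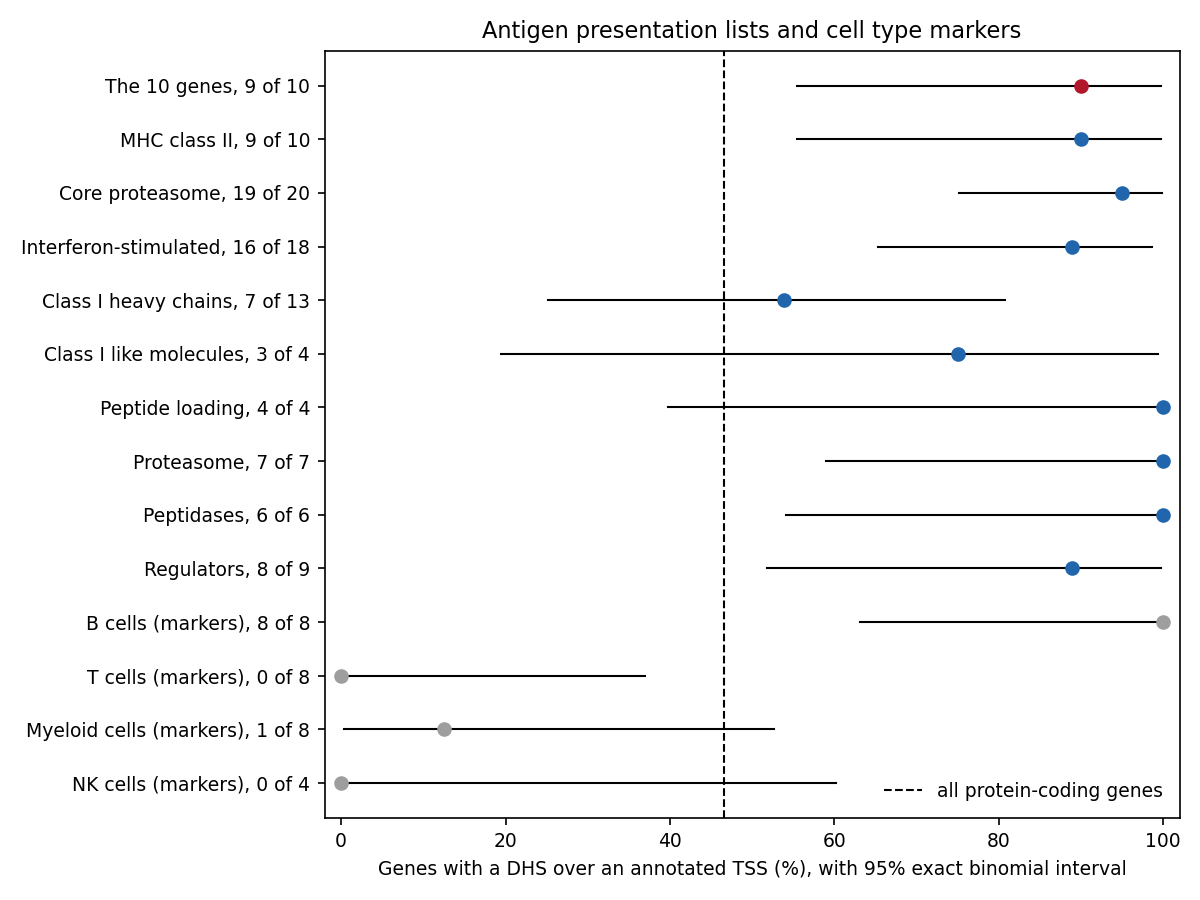
Share of genes with a DHS over an annotated TSS (horizontal axis, percent) for the 10 genes, pathway roles, 3 further lists and cell type markers, with 95% exact binomial intervals (counting error only). The dashed line is the share of all protein-coding genes (46.6%). The 10 genes stand at 90%, heavy chains outside them at 53.8% and T cell markers at 0%.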

How the data were processed

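The deposited file of the DNaseI library is a list of regions whose score is the authors' own value from the MACS peak caller. Its scale, and the version and settings of the caller for this library, are not given in the sources used here. The study's methods state them for its ChIP-seq only, and they were not assumed to hold here. The submitters' processing notes name BWA 0.6.2 and SAMtools, and build mm9. Read counts are not part of the list, so the depth is unknown, and scores were only ranked within the list. The input library was not used here, and 1 further marker list is not reported here.

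Positions are 1-based on mm9 (NCBI build 37), with GENCODE release M1 genes. Gene entries of one name that overlap on one strand were joined. The main TSS, used for word searches, is the start shared by most protein-coding transcripts, or by most transcripts of any type for Nlrc5, with ties to the 5′-most. CpG-rich starts had 55% GC or more and a CpG ratio (observed over expected) of 0.6 or more in the surrounding 1000 bp. Scripts used Python 3.11.15, numpy 2.4.6, scipy 1.17.1 and pysam 0.24.0, and were tested on simulated data. Members and gene lists were chosen with earlier results of these data known. All 10 members are described. Of other lists, genes lacking a DHS over a TSS are named if there are fewer than 6, and heavy chains with one are all named. Intervals are exact binomial at 95% and cover counting error only. Alternatives covered the score, merging of DHS, the TSS set, windows, assignment and the words.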

Additional observations from a re-analysis of the deposited data

How the results depend on the processing

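The number of DHS in the windows depended on the window by construction, with 45 as reported, 13 for gene bodies only and 85 for 50 kb on either side. With a threshold at the median score it was 29. The number assigned to the genes was 21 as reported, 18 with DHS closer than 500 bp merged and 11 for gene bodies only. The share of the 10 genes with an interferon element around the main TSS was 30% as reported, against 9.06% of protein-coding genes, and 90% when the whole DHS over a TSS was searched, which is longer sequence. This is 9 of the 9 genes with such a DHS, beside 34.4% of the protein-coding genes with one. The DHS over these starts were wider than the 760 bp median of all DHS, and Tap1 and Psmb9 share theirs. Widths were not matched in this comparison. From 1000 bp before to 200 bp after the main TSS the share of the 10 genes was 40% against 32.7% of protein-coding genes, and with the stricter word 20% against 3.83%. With either order of the arms it was 40% against 15.5%, and on RefSeq promoters 25% against 8.56%, both chosen after seeing the data. The count of genes with a DHS over a TSS was 9 under the higher score threshold, under protein-coding TSSs only and within 500 bp of a TSS, and 7 of 8 on RefSeq starts, also chosen after seeing the data. The median of the highest promoter score was 216.83 under each alternative run for it. The main TSS used for word searches lies at an internal start for Psmb9 and H2-D1, so the words of H2-D1 were read from RefSeq. No paired analysis was possible because there is 1 DNaseI library. With 1 library no result was checked against replicates.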
